A study of Mus musculus with 8 samples.

Results

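The collagens, laminins and collagen-modifying enzymes of mouse mammary carcinoma cells were examined on 8 Illumina MouseWG-6 v2.0 bead arrays. The set was fixed by gene symbol: every probe annotated as a collagen chain or a laminin chain, together with the nidogens, perlecan (Hspg2), the prolyl 4-hydroxylases, the lysyl hydroxylases (Plod), the lysyl oxidases and the collagen chaperone Serpinh1. These symbols named 137 of the 45281 probes, for 65 genes, and Loxl2 was not analysed here. A probe was called detected on an array where its detection p against the negative control beads was at most 0.01. By this limit 37 probes of 25 genes were detected on at least 1 array, and 40 genes were not detected on any. Of all 19057 genes named by the array's probes, 9017 were detected.

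D2A1 is a carcinoma line derived from a mammary hyperplastic nodule of BALB/c mice, and D2A1-m1 and D2A1-m2 are sublines of it selected for metastasis. Each subline was derived independently from D2A1 cells by 1 passage through the mammary fat pad of a BALB/c mouse and 3 rounds of tail vein inoculation, each into a single mouse, with the cells grown out of the dissociated lungs after every round. Each subline therefore stands for 1 selection, and the cells of all 3 lines were unmodified and were profiled from culture in the same serum-containing medium. The parental line was profiled in 3 cultures, D2A1-m2 in 3 and D2A1-m1 in 2, described as independent biological replicates. Replicate 1 of every line and D2A1 replicate 2 were hybridised in batch 1, and the remaining 4 arrays in batch 2.

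Collagens are secreted as a helix of several chains, which are hydroxylated on proline by prolyl 4-hydroxylases and on lysine by lysyl hydroxylases while they fold in the endoplasmic reticulum with the help of Serpinh1 (HSP47). Outside the cell, fibril-forming collagens assemble into fibrils that lysyl oxidases cross-link. Network collagens, above all collagen IV, form the basement membrane together with the laminins, each of which joins an alpha, a beta and a gamma chain, and with nidogens and the proteoglycan perlecan. In the mammary gland the basement membrane separates the epithelium from the stroma, and the fibrillar collagens of the stroma are made chiefly by fibroblasts.

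Of the genes called in at least 1 comparison, the promoter sequences of chains of collagen IV, collagen VI and collagen XVIII and of perlecan are shown here because several of them moved together or lie beside one another. RefSeq promoter windows (GRCm38.p6), from 250 bases before to 50 bases after an annotated start, were given for 22 of the 25 detected genes, in 23 windows. Col4a1 and Col4a2, which encode the partner chains of the common collagen IV, lie head to head on chromosome 8 with 85 bases of their annotated gene bodies in common, and their windows overlap by 78 bases, set in capitals. The Col4a1 window is chr8:11312777-11313076 on the minus strand and the Col4a2 window is chr8:11312555-11312854 on the plus strand, so that the capitals of one are the reverse complement of those of the other.
Col4a1: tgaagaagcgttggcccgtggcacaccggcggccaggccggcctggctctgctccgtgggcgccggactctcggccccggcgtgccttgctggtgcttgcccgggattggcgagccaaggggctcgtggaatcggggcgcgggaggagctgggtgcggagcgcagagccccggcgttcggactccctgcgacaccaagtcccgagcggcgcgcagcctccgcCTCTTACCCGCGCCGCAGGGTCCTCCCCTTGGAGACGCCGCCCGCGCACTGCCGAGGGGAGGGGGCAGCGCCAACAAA
Col4a2: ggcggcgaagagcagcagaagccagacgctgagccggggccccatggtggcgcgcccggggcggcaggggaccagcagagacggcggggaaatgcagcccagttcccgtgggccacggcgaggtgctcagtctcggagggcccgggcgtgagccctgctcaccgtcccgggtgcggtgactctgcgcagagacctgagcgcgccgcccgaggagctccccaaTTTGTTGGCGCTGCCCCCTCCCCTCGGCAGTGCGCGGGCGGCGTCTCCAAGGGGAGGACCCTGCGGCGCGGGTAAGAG

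Col4a5, a collagen IV chain whose human counterpart is mutated in Alport syndrome, lies on the X chromosome next to Col4a6, with 1.27 kb between the gene bodies. Col6a1 and Col18a1, which both rose in D2A1-m1, lie on chromosome 10, 326 kb apart, and Col6a2, which was not detected, lies 85.2 kb from Col6a1 on the other side. The windows shown are chrX:141475169-141475468 on the plus strand for Col4a5, chr10:76725995-76726294 on the minus strand for Col6a1, chr10:77166481-77166780 on the minus strand for Col18a1, the upstream one of the 2 Col18a1 windows, and chr4:137468553-137468852 on the plus strand for Hspg2. Capitals mark every match, on either strand, to GGGCGG (the GC box), CCAAT (the CCAAT box), TATAAA (the TATA box), TGANTCA (the AP-1 site) or ACGTG (the core of a hypoxia-response element). Different motifs could overlap.
Col4a5: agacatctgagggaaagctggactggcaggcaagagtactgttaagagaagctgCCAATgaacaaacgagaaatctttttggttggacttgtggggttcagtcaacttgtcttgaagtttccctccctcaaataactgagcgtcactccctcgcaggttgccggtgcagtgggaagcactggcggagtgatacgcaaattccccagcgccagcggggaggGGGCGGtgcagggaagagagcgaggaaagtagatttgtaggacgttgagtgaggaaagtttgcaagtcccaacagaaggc
Col6a1: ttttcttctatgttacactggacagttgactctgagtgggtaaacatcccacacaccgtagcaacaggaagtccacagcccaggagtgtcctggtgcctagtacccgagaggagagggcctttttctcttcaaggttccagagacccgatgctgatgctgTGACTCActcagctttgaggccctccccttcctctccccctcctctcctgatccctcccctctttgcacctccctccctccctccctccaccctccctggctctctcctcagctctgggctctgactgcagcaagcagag
Col18a1: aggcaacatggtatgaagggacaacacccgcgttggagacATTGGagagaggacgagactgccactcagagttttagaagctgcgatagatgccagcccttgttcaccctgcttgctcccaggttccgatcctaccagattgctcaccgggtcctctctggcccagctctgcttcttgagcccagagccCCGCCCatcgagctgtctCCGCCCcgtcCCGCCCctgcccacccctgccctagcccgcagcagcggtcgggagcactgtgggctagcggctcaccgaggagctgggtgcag
Hspg2: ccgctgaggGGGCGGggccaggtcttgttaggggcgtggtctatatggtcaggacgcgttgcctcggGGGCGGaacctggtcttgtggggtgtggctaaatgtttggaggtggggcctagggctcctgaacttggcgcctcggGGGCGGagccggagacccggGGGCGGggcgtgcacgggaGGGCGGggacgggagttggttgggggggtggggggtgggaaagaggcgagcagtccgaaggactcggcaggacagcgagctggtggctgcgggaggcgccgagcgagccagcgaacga

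The Hspg2 window held 5 GGGCGG matches and the Col6a1 window none, but the Col6a1 window was the only one of the 23 with a TGANTCA match. Among all 32851 windows of mouse genes of the same length, 35.7% held GGGCGG, 37.4% CCAAT, 13.6% TATAAA, 7.81% TGANTCA and 19.6% ACGTG. Of the 23 windows of the detected genes, 19 held GGGCGG, 9 CCAAT, 3 TATAAA, 1 TGANTCA and 7 ACGTG. The 7 windows with ACGTG were those of Col11a2, Col5a1, P4ha1, P4ha2, P4hb, Plod3 and Serpinh1. These matches describe the letters of the windows only. The GC content of the windows shown ran from 52.7% for Col4a5 to 74% for Col4a1.

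Counted over at least 1 array of a line, detection of the set was close to equal in the 3 lines. In D2A1 33 of the 137 probes were detected on at least 1 array (24.1%), in D2A1-m1 35 (25.5%) and in D2A1-m2 34 (24.8%), against 33.1%, 33.1% and 34.2% of all probes on the array. Per array, 28 to 32 member probes were detected in D2A1, 34 in D2A1-m1 and 31 to 34 in D2A1-m2. Beside them, 13419 to 14387, 13618 to 14625 and 13768 to 14942 of all probes were detected per array. Every array of the line detected 26 member probes in D2A1, 33 in D2A1-m1, which had 2 arrays, and 31 in D2A1-m2. The matching counts over all probes were not made, so these cannot be read as particular to the set. Of the 37 detected probes, 32 were detected in every line, and 26 on every array. The exceptions were both detected Col6a1 probes, of which ILMN_1259388 was detected in D2A1-m1 alone and ILMN_2768087 in both sublines, a Loxl4 probe (ILMN_1255356) detected on 1 D2A1-m1 array, the Col1a1 probe detected on 1 D2A1-m2 array, and a P4ha1 probe (ILMN_1234565) detected on 1 D2A1 array. Of the detected genes, Col6a1, Col7a1, Col11a2, Col18a1, Col23a1, P4ha2 and Plod2 also had probes that no array detected. A probe that is not detected has a level that these arrays cannot tell from background, which does not show that the gene is silent.

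**Figure D1:**
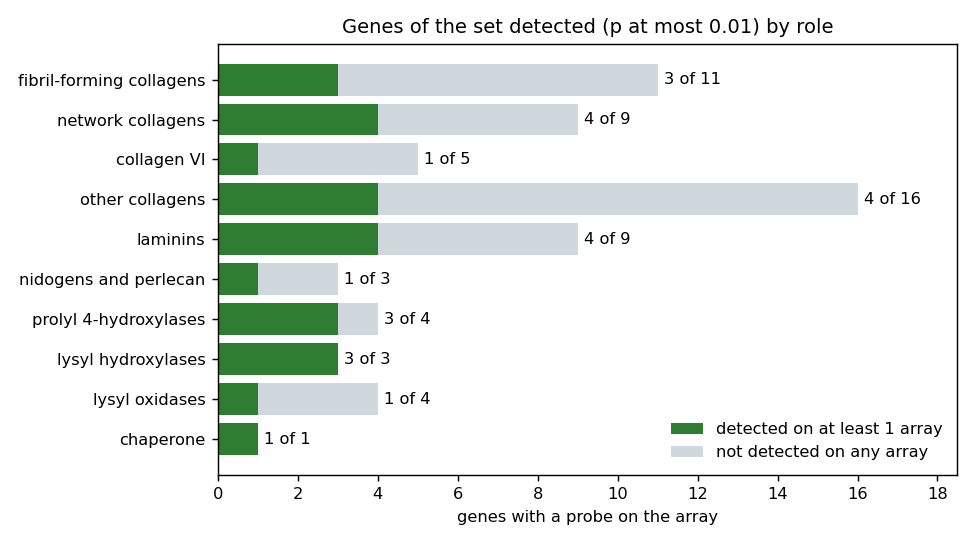
Genes of the set with a probe on the array, by role (bars, number of genes), split into those that any of the 8 arrays detected (p of at most 0.01) and those detected on none. The enzymes that act inside the cell were mostly detected, with 3 of 4 prolyl 4-hydroxylase genes and 3 of 3 lysyl hydroxylase genes, while 3 of 11 fibril-forming collagens and 4 of 16 other collagens were. Of all 19057 genes named on the array, 9017 were detected.

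Among the fibril-forming collagens the genes that were not detected were Col1a2, Col2a1, Col3a1, Col5a2, Col5a3, Col11a1, Col24a1 and Col27a1, so that the Col1a1 partner chain Col1a2 and the collagen III chain Col3a1 gave no signal above background in any culture. The network collagens Col4a3, Col4a4, Col4a6, Col8a2 and Col10a1 and the collagen VI chains Col6a2, Col6a4, Col6a5 and Col6a6 were likewise not detected. The same held for the other collagens Col9a1, Col9a2, Col9a3, Col13a1, Col14a1, Col15a1, Col17a1, Col19a1, Col22a1, Col25a1, Col26a1 and Col28a1. Laminin chains without a detected probe were Lama1, Lama2, Lama4, Lamb3 and Lamc3. Both nidogens (Nid1 and Nid2), P4ha3, Lox, Loxl1 and Loxl3 also stayed at background on all 8 arrays.

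The question of each comparison was how a subline differed from the parental cells and from the other subline. Values are log2 normalised intensities, differences are fitted with a term for the batch and so need not equal the difference of the plain means, and a probe was called where its p, adjusted by Benjamini-Hochberg across the 16462 probes that some array detected, was below 0.05 and its fold was at least 1.5. In D2A1-m1 against D2A1, 10 of the 37 probes were called, where 12.3% of all tested probes were called. Of these 6 were higher, beside 6.2% of all tested probes, and 4 lower, beside 6.06%. In D2A1-m2 against D2A1, 14 probes were called, where 13% of all tested probes were, with 9 higher (7.1% of all) and 5 lower (5.9% of all). Between D2A1-m1 and D2A1-m2, 5 probes were called, where 3.36% of all tested probes were, with 2 higher in D2A1-m1 (1.52% of all) and 3 lower (1.84% of all). The median difference over the 37 probes was 0.13 for D2A1-m1, 0.14 for D2A1-m2 and 0.01 between the sublines, beside 0.00, -0.01 and 0.01 over all tested probes. The Col6a1 probe ILMN_1259388 was tested only because D2A1-m1 detected it, ILMN_2768087 because both sublines did, and the Col1a1 probe because D2A1-m2 did. The comparisons with D2A1 share its 3 arrays. In all, 18 probes of 13 genes were called in at least 1 comparison. This count spans 3 comparisons and cannot be set against the share of any single one, and its share over all tested probes was not computed. The 18 probes made 29 calls. Of these, 27 were lost in batch 1 alone, 21 with the authors' processed values in place of the intensities, 11 with no background correction, 10 with an offset of 50 in it, 8 with no batch term and 6 at an unadjusted p under 0.001. The methods' t-test is the 2-sample test of the paper's methods, run here on these normalised intensities with the batch removed in limma. It was not run on the authors' processed values. It lost 17 after Benjamini-Hochberg adjustment and 23 at an unadjusted p under 0.001, and no call reversed. On the bulk RNA of a culture, fewer expressing cells and less RNA per cell cannot be told apart.

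**Figure D2:**
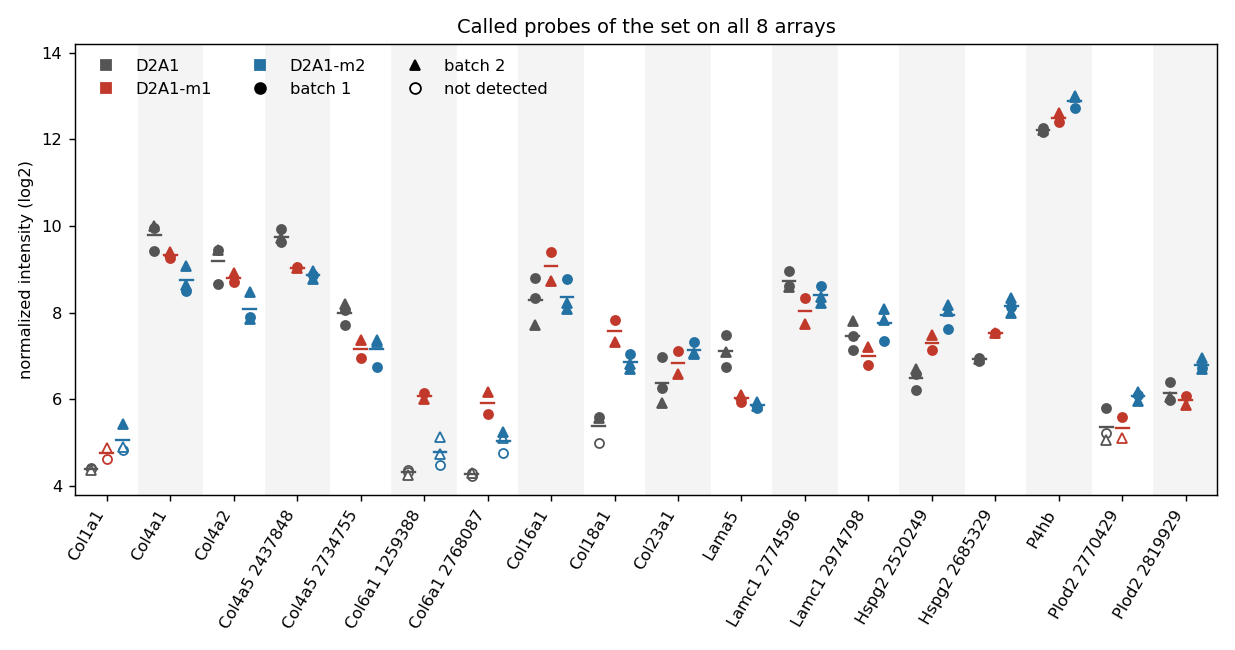
Log2 normalised intensity (vertical axis) of the 18 probes called in at least 1 comparison, on all 8 arrays. Each point is 1 culture, coloured by line, circles for batch 1 and triangles for batch 2, open where the probe was not detected, and short lines are line means. For Col18a1 the sublines sit between 6.70 and 7.83, above D2A1 at 4.99 to 5.59, and for Lama5 between 5.79 and 6.11, below D2A1 at 6.75 to 7.48.

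Of the collagen IV chains, Col4a1 and Col4a2 fell in D2A1-m2 and Col4a5 in both sublines. Col4a1 read 9.42, 9.96 and 9.99 on the D2A1 arrays, 9.27 and 9.41 on the D2A1-m1 arrays and 8.50, 8.65 and 9.08 on the D2A1-m2 arrays, each in the order of the replicates. All D2A1-m2 values lay below all others, and D2A1-m1 lay just under the lowest D2A1 value. Col4a1 fell by 1.14 in D2A1-m2 (SE 0.17, 2.21-fold, adjusted p = 0.00204), and the difference of -0.50 in D2A1-m1 (95% interval -0.92 to -0.08) did not pass the test (adjusted p = 0.0916). Its neighbour Col4a2 read 8.66, 9.45 and 9.44 in D2A1, 8.70 and 8.91 in D2A1-m1, with 7.91, 7.86 and 8.48 in D2A1-m2. The D2A1-m2 values again lay below the rest, whereas those of D2A1-m1 fell within the D2A1 range. Col4a2 fell by 1.2 in D2A1-m2 (SE 0.22, 2.29-fold, adjusted p = 0.00534), with -0.42 in D2A1-m1 (interval -0.97 to 0.12). Between the sublines the differences of 0.64 for Col4a1 (adjusted p = 0.0959) and 0.77 for Col4a2 (adjusted p = 0.114) did not pass the test. The fall in D2A1-m2 was -1.19 for Col4a1 and -1.14 for Col4a2 within batch 1, and -1.13 and -1.27 within batch 2, and both calls held with any 1 array left out. Both were kept with the authors' processed values, where Col4a2 was at -0.79, and the methods' t-test with Benjamini-Hochberg lost the Col4a2 call. At an unadjusted p under 0.001 that test lost both calls.

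Col4a5 fell in both sublines by both of its probes. Probe ILMN_2437848 read 9.63, 9.92 and 9.72 in D2A1, 9.06 and 9.02 in D2A1-m1 and 8.86, 8.97 and 8.78 for D2A1-m2. Probe ILMN_2734755 read 7.72, 8.06 and 8.19 in D2A1, 6.96 and 7.38 in D2A1-m1, with 6.75, 7.33 and 7.38 in D2A1-m2. By either probe the D2A1 cultures were above all subline cultures. The differences in D2A1-m1 were -0.71 (SE 0.13, adjusted p = 0.00612) and -0.89 (SE 0.14, adjusted p = 0.00305). Those in D2A1-m2 were -0.88 (SE 0.12, adjusted p = 0.00131) and -0.99 (SE 0.13, adjusted p = 0.00108). The D2A1-m2 falls were -0.91 and -1.14 within batch 1 and -0.85 and -0.84 within batch 2, and those of D2A1-m1 were -0.71 and -0.93 within batch 1 and -0.71 and -0.81 within batch 2. Without D2A1-m1 replicate 1 both D2A1-m1 calls were lost (-0.73 and -0.92), and without replicate 2 that of ILMN_2437848 (-0.70). The authors' processed values lost both D2A1-m1 calls (-0.55 and -0.47) and the D2A1-m2 call of ILMN_2734755 (-0.49), and the methods' t-test with Benjamini-Hochberg lost both D2A1-m1 calls. At an unadjusted p under 0.001 the t-test lost these and the D2A1-m2 call of ILMN_2734755. With the processed values the D2A1-m1 calls failed on the fold alone, at adjusted p = 0.00477 and 0.00875 by limma. The sublines differed from each other by 0.16 (interval -0.13 to 0.46) and 0.09 (interval -0.23 to 0.41), neither past the test. Col8a1, a network collagen of vessel walls and of the cornea, was detected on all arrays by 2 probes and called in no comparison. For its probe of higher mean, ILMN_2503553, the difference was 0.13 (interval -0.14 to 0.41) in D2A1-m1 and 0.17 (interval -0.08 to 0.42) in D2A1-m2, and for the other probe 0.01 (interval -0.39 to 0.41) and 0.26 (interval -0.11 to 0.63).

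Col6a1, the alpha 1 chain of collagen VI, which forms beaded microfilaments around cells, was higher in D2A1-m1 than in either other line. Probe ILMN_1259388 read 4.37, 4.33 and 4.26 in D2A1, 6.14 and 6.01 in D2A1-m1 and 4.48, 5.13 and 4.74 for D2A1-m2, and only the D2A1-m1 arrays detected it. Probe ILMN_2768087 read 4.22, 4.31 and 4.29 in D2A1, 5.66 and 6.16 in D2A1-m1, with 4.76, 5.11 and 5.24 in D2A1-m2, and was detected on both D2A1-m1 arrays, on 1 D2A1-m2 array and on no D2A1 array. By both of these probes the D2A1-m1 cultures lay above all others, while D2A1 and most D2A1-m2 arrays were at background and have no order there. A further Col6a1 probe, ILMN_2589422, was not detected on any array, including those of D2A1-m1. Since D2A1 gave no level above background, the rise in D2A1-m1 is a bound: at least 1.70-fold by the first probe (fitted difference 1.74, adjusted p = 0.000263) and at least 1.52-fold by the second (fitted difference 1.59, adjusted p = 0.000126), taken against the mean of the lowest detected signal on the D2A1 arrays (5.31). The differences within batch 1 were 1.79 and 1.40 and within batch 2 were 1.75 and 1.87, and both calls held with any 1 array left out. With an offset of 50 they were 0.91 and 0.80, both still called, and with the authors' processed values 0.43 and 0.40, neither called. There the first probe had an adjusted p of 0.00114 by limma and failed on the fold alone. The methods' t-test at an unadjusted p under 0.001 lost the call of the second probe.

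In D2A1-m2 the second Col6a1 probe was called against D2A1 with a difference of 0.67 (adjusted p = 0.00696), but its D2A1-m2 mean of 5.04 was below that lowest detected signal, so no fold is given, and without D2A1 replicate 3 the call was lost (0.47). It was also lost with no background correction (0.56), an offset of 50 (0.28), arrays scaled to the 75th percentile (0.56) and the authors' processed values (0.17). The methods' t-test at an unadjusted p under 0.001 lost it too. The first probe differed by 0.43 (interval 0.06 to 0.80) and was not called. Between the sublines Col6a1 was at least 1.86-fold higher in D2A1-m1 by ILMN_1259388 (difference 1.31, SE 0.18, adjusted p = 0.00677) and higher by ILMN_2768087 (difference 0.92, SE 0.14, adjusted p = 0.0118), for which no fold is given because 1 of the 3 D2A1-m2 arrays detected it. Within batch 1 these differences were 1.66 and 0.90 and within batch 2 they were 1.07 and 0.98. Without D2A1-m1 replicate 1 or 2 the first was no longer called (1.17 and 1.48), and the second was also lost without either of these arrays (1.05 and 0.77) or without D2A1-m2 replicate 1 or 2 (0.85 and 0.91). Both were lost with the authors' processed values (0.33 and 0.23) and by the methods' t-test, and the second also with no background correction (0.53) or an offset of 50 (0.52), where the first was kept at 0.74 and 0.72.

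Of the collagens outside these families, Col18a1 had the largest fitted difference of the set. It encodes a basement membrane collagen that carries heparan sulphate and is the precursor of endostatin. Col18a1 read 4.99, 5.59 and 5.57 in D2A1, 7.83 and 7.33 in D2A1-m1 and 7.04, 6.82 and 6.70 for D2A1-m2, with 2 of the 3 D2A1 arrays above the detection limit. These values are of probe ILMN_2735184, and the other Col18a1 probes, ILMN_1225839 and ILMN_2937542, were not detected on any array. Every subline culture was above every D2A1 culture, and both D2A1-m1 cultures were above those of D2A1-m2. Col18a1 rose 4.65-fold in D2A1-m1 (difference 2.22, SE 0.22, adjusted p = 0.000212) and 2.86-fold in D2A1-m2 (difference 1.52, SE 0.20, adjusted p = 0.00103). These rises were 2.54 and 1.76 within batch 1 and 1.75 and 1.19 within batch 2, and both calls held with any 1 array left out. With the authors' processed values they were 0.84, still called, and 0.47, not called, and the methods' t-test lost the D2A1-m1 call after Benjamini-Hochberg adjustment and both calls at an unadjusted p under 0.001. The difference of 0.70 between the sublines (interval 0.21 to 1.19) did not pass the test (adjusted p = 0.113).

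Col16a1, a collagen that associates with fibrils, rose in D2A1-m1. It read 8.34, 8.80 and 7.72 in D2A1, 9.41 and 8.73 in D2A1-m1, with 8.77, 8.23 and 8.09 in D2A1-m2. The raw values overlapped, and the batch moved this probe by -0.71 (batch 2 minus batch 1), so the comparison rests on values within a batch, which were 0.84 in batch 1 and 1.01 in batch 2. The fitted difference was 0.90 (SE 0.16, 1.87-fold, adjusted p = 0.00443) in D2A1-m1 and 0.31 (interval -0.01 to 0.64) in D2A1-m2, and the D2A1-m1 call was lost without D2A1-m1 replicate 1 (0.93), with no batch term (0.78) and by the methods' t-test. Col23a1, a transmembrane collagen, read 6.26, 6.98 and 5.92 in D2A1, 7.11 and 6.58 in D2A1-m1 and 7.32, 7.08 and 7.04 for D2A1-m2. Its D2A1-m2 values were all above the D2A1 values, and it rose 1.90-fold in D2A1-m2 (difference 0.92, SE 0.19, adjusted p = 0.00788), by 0.70 within batch 1 and 1.14 within batch 2, with the call lost without D2A1 replicate 3 (0.78), with no batch term (0.76), with the authors' processed values (0.35) and by the methods' t-test. In D2A1-m1 the Col23a1 difference of 0.54 (interval 0.09 to 1.00) did not pass the test. Another Col23a1 probe, ILMN_1241768, was not detected on any array. Col7a1, the collagen of anchoring fibrils, was detected on all arrays and not called, at 0.03 (interval -0.27 to 0.33) in D2A1-m1 and 0.30 (interval 0.02 to 0.58) in D2A1-m2.

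Among the fibril-forming collagens Col5a1, which takes part in starting new fibrils, was detected on all arrays and Col11a2, a chain best known from cartilage, on most. Neither was called: Col5a1 differed by 0.28 (interval -0.01 to 0.57) in D2A1-m1 and 0.09 (interval -0.18 to 0.36) in D2A1-m2. Col11a2 differed by -0.05 (interval -0.49 to 0.40) and -0.16 (interval -0.57 to 0.25). The Col1a1 probe, for the main chain of collagen I, read 4.41, 4.40 and 4.36 in D2A1, 4.63 and 4.88 in D2A1-m1, with 4.82, 4.90 and 5.44 in D2A1-m2. Only D2A1-m2 replicate 3 detected it, so that the line means of 4.39, 4.75 and 5.05 all lie at background level. The probe was called in D2A1-m2 with a difference of 0.61 (adjusted p = 0.0239), no fold is given, and the call was lost without D2A1 replicate 3 (0.45) or D2A1-m2 replicate 1 (0.73). It was also lost with no background correction (0.41), an offset of 50 (0.27), arrays scaled to the 75th percentile (0.52), the authors' processed values (0.13), no detection filter and the methods' t-test.

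**Figure D3:**
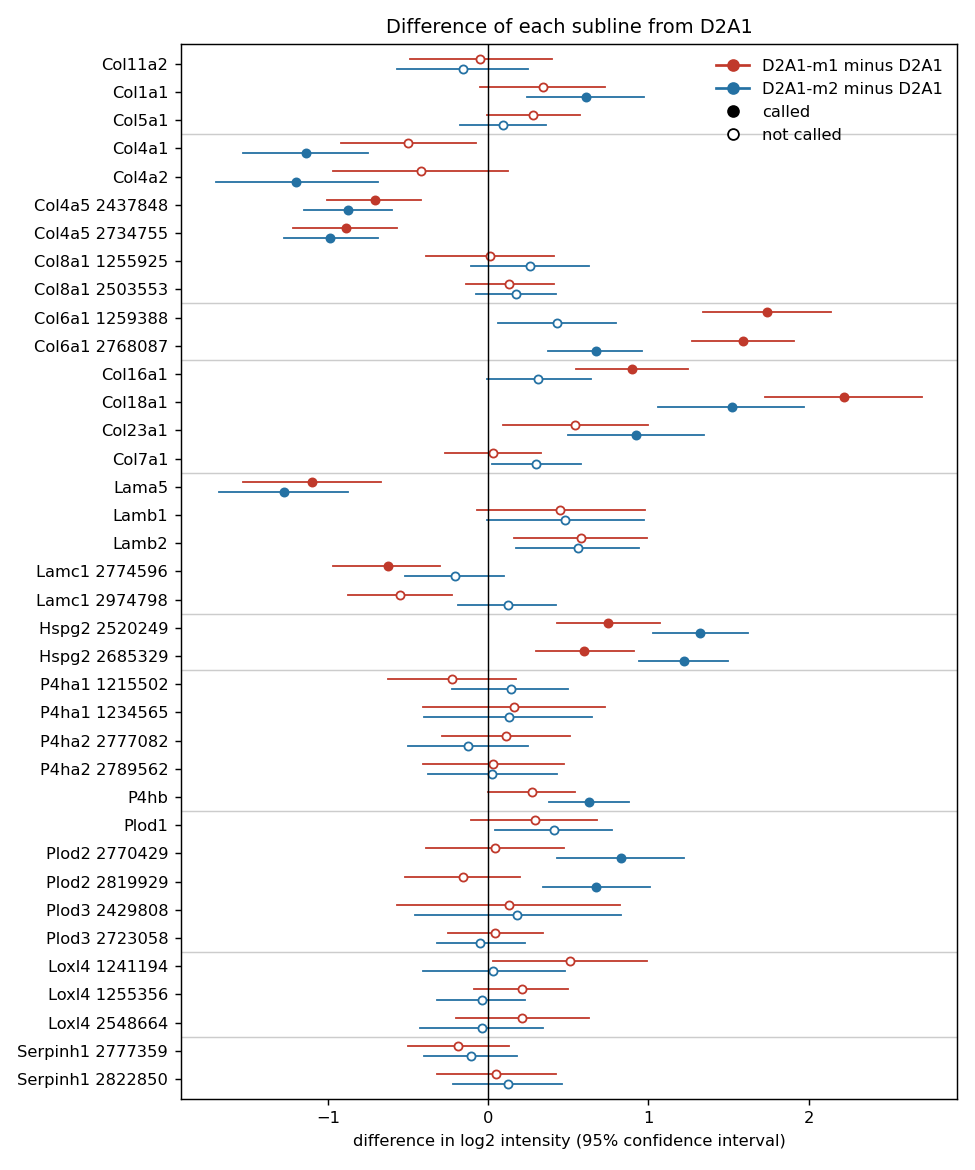
Difference of D2A1-m1 and of D2A1-m2 from D2A1 in log2 intensity (horizontal axis) for all 37 detected probes, grouped by role, with 95% confidence intervals from limma, filled where called. Probe numbers follow the gene name where a gene has several probes. Col18a1 (2.22 and 1.52) lies farthest to the right and Lama5 (-1.1 and -1.28) farthest to the left in both sublines.

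Lama5, the alpha chain of the laminins most widespread in adult epithelial basement membranes, fell in both sublines. It read 6.75, 7.48 and 7.10 in D2A1, 5.94 and 6.11 in D2A1-m1 and 5.79, 5.94 and 5.85 for D2A1-m2. All 5 subline cultures were below all 3 D2A1 cultures. The difference was -1.1 in D2A1-m1 (SE 0.19, 2.14-fold, adjusted p = 0.0047) and -1.28 in D2A1-m2 (SE 0.18, 2.43-fold, adjusted p = 0.00131). Within batch 1 it was -1.17 and -1.33 and within batch 2 it was -0.99 and -1.21, with the D2A1-m1 call lost without D2A1-m1 replicate 1 (-1.03). Both calls were lost with the authors' processed values (-0.43 and -0.47), and the methods' t-test with Benjamini-Hochberg lost that of D2A1-m1. At an unadjusted p under 0.001 that test lost both. The sublines differed by 0.18 (interval -0.25 to 0.61).

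Lamc1, the gamma chain common to most laminins, was lower in D2A1-m1. Probe ILMN_2774596 read 8.62, 8.96 and 8.60 in D2A1, 8.34 and 7.73 in D2A1-m1, with 8.62, 8.36 and 8.23 in D2A1-m2. Probe ILMN_2974798 read 7.13, 7.46 and 7.80 in D2A1, 6.79 and 7.20 in D2A1-m1 and 7.35, 7.82 and 8.09 for D2A1-m2. By the first probe D2A1-m1 lay below D2A1, and by the second it lay below D2A1-m2 and overlapped D2A1. The first fell by 0.63 in D2A1-m1 (SE 0.15, 1.55-fold, adjusted p = 0.0179), while the second, at -0.55 (adjusted p = 0.0273), was under 1.5-fold and so not called. Between the sublines the second probe was 1.59-fold lower in D2A1-m1 (difference -0.67, SE 0.15, adjusted p = 0.0383) and the first differed by -0.43 (adjusted p = 0.153). In D2A1-m2 the probes differed from D2A1 by -0.21 (interval -0.52 to 0.10) and 0.12 (interval -0.19 to 0.42).

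Neither Lamc1 call held with each array left out in turn. The fall of the first probe was -0.46 within batch 1 and -0.86 within batch 2, and it was lost without D2A1 replicate 2 (-0.58) or 3 (-0.53), or without D2A1-m1 replicate 1 (-0.82) or 2 (-0.48). The difference of the second probe between the sublines was -0.56 within batch 1 and -0.76 within batch 2. It was lost without D2A1 replicate 3 (-0.67), D2A1-m1 replicate 1 (-0.74) or 2 (-0.59), or D2A1-m2 replicate 1 (-0.73), 2 (-0.73) or 3 (-0.59). Both Lamc1 calls were also lost with no background correction (-0.57 and -0.55), an offset of 50 (-0.57 and -0.56), the authors' processed values (-0.44 and -0.37), no batch term (-0.69 and -0.76) and the methods' t-test. The beta chains Lamb1 and Lamb2 were not called. Lamb2 differed by 0.58 (interval 0.16 to 0.99) in D2A1-m1 and 0.56 (interval 0.17 to 0.94) in D2A1-m2, and Lamb1 by 0.45 (interval -0.07 to 0.98) and 0.48 (interval -0.01 to 0.97). Lamb1 was moved more by the batch (-1.14) than by the line.

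Perlecan (Hspg2), a heparan sulphate proteoglycan of basement membranes, rose in both sublines. Probe ILMN_2520249 read 6.21, 6.58 and 6.70 in D2A1, 7.13 and 7.49 in D2A1-m1, with 7.63, 8.18 and 8.03 in D2A1-m2. Probe ILMN_2685329 read 6.88, 6.95 and 6.94 in D2A1, 7.54 and 7.53 in D2A1-m1 and 8.12, 8.34 and 8.0 for D2A1-m2. By both probes the lines were ordered D2A1, D2A1-m1, D2A1-m2 without overlap. Hspg2 rose 2.50-fold (difference 1.32, SE 0.13, adjusted p = 0.000219) and 2.33-fold (difference 1.22, SE 0.12, adjusted p = 0.000243) in D2A1-m2, and both calls held with any 1 array left out and with the authors' processed values (0.65 and 0.64). In D2A1-m1 the rises were 1.68-fold (difference 0.75, SE 0.14, adjusted p = 0.00685) and 1.52-fold (difference 0.60, SE 0.13, adjusted p = 0.0138). In D2A1-m2 the differences were 1.24 and 1.2 within batch 1 and 1.40 and 1.23 within batch 2. In D2A1-m1 they were 0.74 and 0.63 within batch 1 and 0.79 and 0.58 within batch 2.

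Both D2A1-m1 calls of Hspg2 were lost without D2A1-m1 replicate 1 (0.74 and 0.58) or 2 (0.76 and 0.63), and the second also without D2A1 replicate 3 (0.61). They were also lost with no background correction (0.57 and 0.49), an offset of 50 (0.58 and 0.49) and the authors' processed values (0.32 and 0.28). The methods' t-test lost the D2A1-m1 call of ILMN_2520249 at both limits. Between the sublines ILMN_2685329 was 1.53-fold lower in D2A1-m1 (difference -0.61, SE 0.13, adjusted p = 0.0393), by -0.57 within batch 1 and -0.64 within batch 2, and ILMN_2520249 differed by -0.57 without passing the test (adjusted p = 0.0592). That call was lost without D2A1 replicate 3 (-0.61), D2A1-m1 replicate 1 (-0.64) or 2 (-0.58), or D2A1-m2 replicate 1 (-0.63), 2 (-0.52) or 3 (-0.70). No background correction (-0.53), an offset of 50 (-0.53), the authors' processed values (-0.36), no batch term (-0.62) and the methods' t-test ended it as well.

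Of the enzymes, P4hb, the beta subunit of prolyl 4-hydroxylase and a protein disulphide isomerase in its own right, rose in D2A1-m2. It read 12.16, 12.25 and 12.21 in D2A1, 12.39 and 12.61 in D2A1-m1, with 12.72, 12.97 and 12.99 in D2A1-m2. The lines did not overlap, with D2A1 lowest and D2A1-m2 highest. P4hb rose 1.55-fold in D2A1-m2 (difference 0.63, SE 0.11, adjusted p = 0.00401), by 0.52 within batch 1 and 0.76 within batch 2, and the call was lost without D2A1 replicate 3 (0.53) and in batch 1 alone. In D2A1-m1 the difference of 0.27 (interval 0.00 to 0.54) did not pass the test. The catalytic alpha subunits P4ha1 and P4ha2 were not called. P4ha2 (ILMN_2777082) differed by 0.11 (interval -0.29 to 0.51) in D2A1-m1 and -0.13 (interval -0.50 to 0.25) in D2A1-m2, and P4ha1 (ILMN_1215502) by -0.23 (interval -0.63 to 0.17) and 0.14 (interval -0.23 to 0.50). Their other detected probes differed by 0.02 to 0.16 from D2A1.

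Plod2, the lysyl hydroxylase that acts on the telopeptides of collagen, rose in D2A1-m2. Probe ILMN_2770429 read 5.22, 5.79 and 5.06 in D2A1, 5.59 and 5.10 in D2A1-m1 and 6.10, 5.96 and 6.18 for D2A1-m2, and was detected on 1 D2A1, 1 D2A1-m1 and 3 D2A1-m2 arrays. Probe ILMN_2819929 read 5.98, 6.39 and 6.06 in D2A1, 6.07 and 5.88 in D2A1-m1, with 6.72, 6.70 and 6.96 in D2A1-m2, and was detected on all. By both of these probes the D2A1-m2 cultures were above those of the other lines, which overlapped each other. A further Plod2 probe, ILMN_2495956, was not detected on any array. Plod2 rose 1.77-fold (difference 0.83, SE 0.18, adjusted p = 0.00953) and 1.59-fold (difference 0.67, SE 0.15, adjusted p = 0.0115) in D2A1-m2, by 0.60 and 0.53 within batch 1 and 1.01 and 0.77 within batch 2. Without D2A1 replicate 3 both calls were lost (0.73 and 0.62). Both were also lost with no background correction (0.48 for each), an offset of 50 (0.49 and 0.48), the authors' processed values (0.19 and 0.24) and the methods' t-test. In D2A1-m1 the differences were 0.04 (interval -0.39 to 0.47) and -0.16 (interval -0.52 to 0.20).

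Between the sublines Plod2 was 1.78-fold lower in D2A1-m1 by ILMN_2819929 (difference -0.83, SE 0.16, adjusted p = 0.027), with -0.65 within batch 1 and -0.95 within batch 2, and ILMN_2770429 differed by -0.79 (adjusted p = 0.0534). The call was lost without D2A1-m1 replicate 1 (-0.91) or 2 (-0.73), or D2A1-m2 replicate 1 (-0.94), 2 (-0.87) or 3 (-0.74), and with no background correction (-0.58), the authors' processed values (-0.30), no batch term (-0.82) and the methods' t-test. The other lysyl hydroxylases were not called. Plod3, which also glycosylates hydroxylysine, differed by 0.04 (interval -0.25 to 0.34) in D2A1-m1 and -0.05 (interval -0.32 to 0.23) in D2A1-m2 by ILMN_2723058, and its other probe by 0.13 and 0.18. Plod1, which hydroxylates lysine within the helix, differed by 0.29 (interval -0.11 to 0.68) and 0.41 (interval 0.04 to 0.77).

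Neither Serpinh1 nor Loxl4 was called in any comparison. Serpinh1 (ILMN_2777359) differed by -0.19 (interval -0.50 to 0.13) in D2A1-m1 and -0.11 (interval -0.40 to 0.18) in D2A1-m2, and its other probe by 0.05 (interval -0.32 to 0.42) and 0.12 (interval -0.22 to 0.46). Loxl4, the only lysyl oxidase of the set that was detected, has 3 probes. For Loxl4 probe ILMN_2548664 the difference was 0.21 (interval -0.20 to 0.63) in D2A1-m1 and -0.04 (interval -0.43 to 0.34) in D2A1-m2. Probe ILMN_1241194 differed by 0.51 (interval 0.03 to 0.99) and 0.03 (interval -0.41 to 0.48), and for these 2 Loxl4 probes the upper bounds in D2A1-m1 lie beyond a 1.5-fold change. The remaining probe, detected on 1 array, differed by 0.21 and -0.04.

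**Figure D4:**
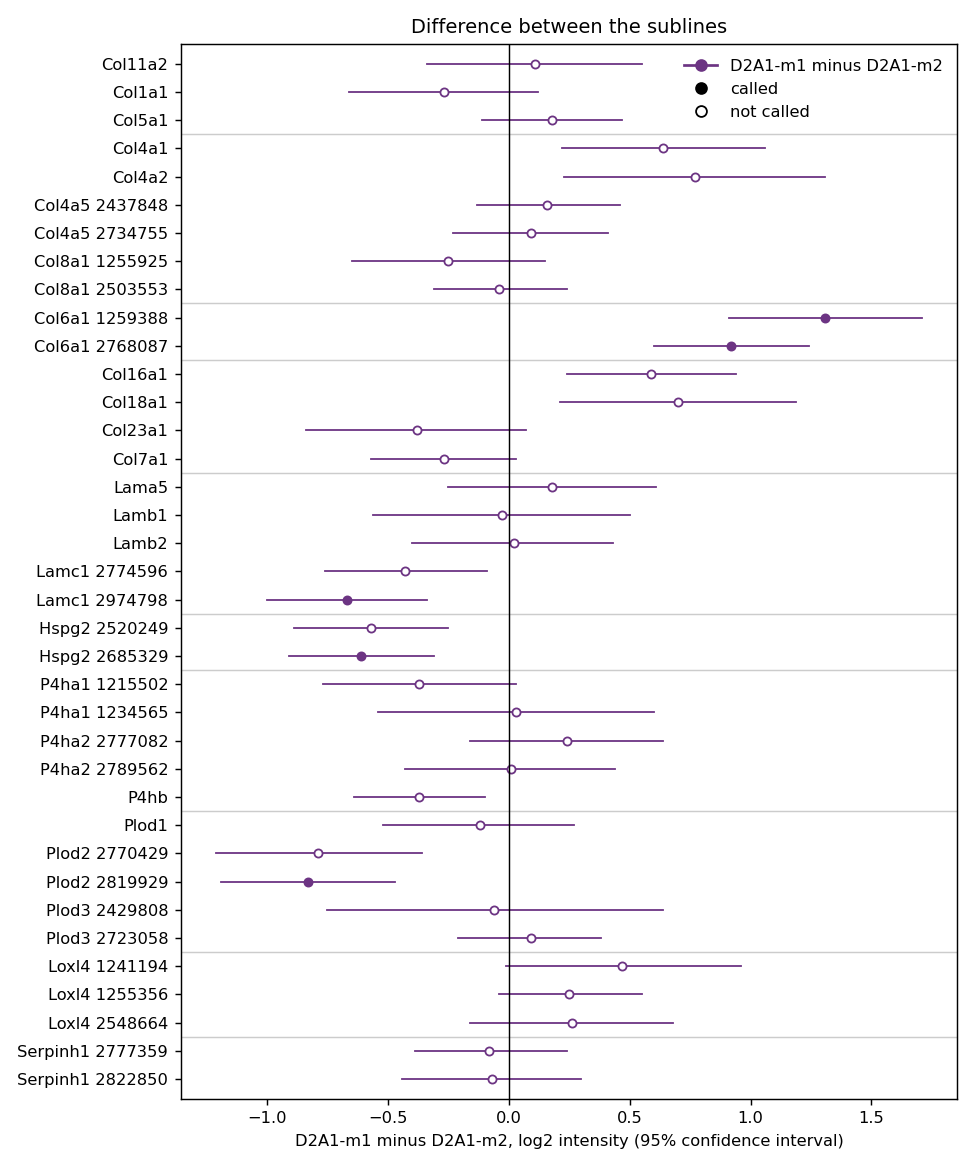
Difference of D2A1-m1 from D2A1-m2 in log2 intensity (horizontal axis) for the 37 detected probes, grouped by role, with 95% confidence intervals from limma, filled where called. The 5 called probes are both detected Col6a1 probes (1.31 and 0.92) to the right, and 1 probe each of Lamc1 (-0.67), Hspg2 (-0.61) and Plod2 (-0.83) to the left.

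Genes that act on the same proteins were taken from a list of the wider pathway. Of the genes for propeptide processing, 3 of 7 on the array were detected, with 6 probes. Bmp1, the proteinase that removes the procollagen C-propeptide, fell by its 3 detected probes in both sublines, and its other 2 probes were not detected on any array. It fell in D2A1-m1 by 0.91, 0.79 and 0.92 (adjusted p = 0.0139, 0.00362 and 0.0022), and in D2A1-m2 by 0.77, 0.80 and 1.14 (adjusted p = 0.0172, 0.00202 and 0.000404). Its enhancers Pcolce and Pcolce2 were not called. Of the gene symbols for folding, 3-hydroxylation, glycosylation and export, 14 of 16 were detected, with 23 probes, of which 2 were called in D2A1-m1, both higher, where 6.2% of all tested probes rose. Ctage5, detected, and Mia2, not detected, are names of 1 gene in that list and were counted apart. In D2A1-m2 1 of the 23 rose and 2 fell, where 7.1% and 5.9% of all tested probes did. P3h2, a prolyl 3-hydroxylase known to act on collagen IV, fell in D2A1-m2 by 1.07 and 1.31 (adjusted p = 0.00417 and 0.000321), with -0.16 and -0.30 in D2A1-m1, and was higher in D2A1-m1 than in D2A1-m2 by 0.91 and 1.01 (adjusted p = 0.0425 and 0.0102).

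The others of that list that passed were P3h4, which rose at least 1.57-fold in D2A1-m2 (adjusted p = 0.0149), and Crtap (ILMN_2877541) and P3h3, which rose by 0.63 and 0.69 in D2A1-m1 (adjusted p = 0.0197 and 0.03). The other Crtap probe, at 0.46, was under 1.5-fold. Of the collagen and laminin receptors, 7 of 12 were detected, with 9 probes. Itgb4, the beta chain of the laminin receptor of hemidesmosomes, rose at least 1.70-fold in D2A1-m1 (adjusted p = 0.000548), and its difference in D2A1-m2 was 0.92 (adjusted p = 0.00543) with a mean of 5.30, just under the lowest detected signal in D2A1, so that no fold is given. P3h4 and this Itgb4 probe were tested only because the sublines detected them, since no D2A1 array did. Itga3, the alpha chain of a laminin-binding integrin, rose by 0.59 in D2A1-m1 (adjusted p = 0.0314), and the collagen receptor Ddr1 fell by 0.79 in D2A1-m2 (adjusted p = 0.00137). Itgb4 and Ddr1 each had another probe that was not detected on any array.

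Since matrix genes are typical of stromal cells and the sublines were recovered from lung, markers of other cell types were read on the same arrays. Of 8 fibroblast markers, 2 were detected: Pdgfra (ILMN_1235932) rose by 0.77 in D2A1-m1 (adjusted p = 0.00944), where its other detected probe was at -0.34, and Pdgfrb, detected on 1 D2A1 array, rose by 0.94 in D2A1-m2 (adjusted p = 0.0137). Dcn, Lum, Tcf21, Thy1, Fap and Dpt were not detected on any array. The summed deposited intensity of the 15 fibroblast marker probes was 809.4 to 852.9 in D2A1, 894.7 to 953.6 in D2A1-m1 and 876.6 to 926 in D2A1-m2. It thus did not overlap between D2A1 and the sublines, but neither did the sum of the 10 lung epithelial marker probes, nearly all at background, at 510.2 to 529.4, 536.8 to 543.6 and 531 to 541.2. These sums are not normalised, and their part in the results was not tested. No endothelial marker of 7 and no leukocyte marker of 5 was detected on any array, and of 7 lung epithelial markers only Ager was, on 1 D2A1 array. Of 5 pericyte markers, Cspg4 was detected, on 1 D2A1 and 1 D2A1-m2 array. All 6 mesenchymal, claudin-low markers were detected. Of these Snai1 rose by 1.05 in D2A1-m1 and 0.88 in D2A1-m2 (adjusted p = 0.0175 and 0.022), and Vim fell by 0.61 in D2A1-m1 (adjusted p = 0.0113). Snai1 and Vim each had another probe that was not detected on any array.

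Of 8 epithelial markers Krt8, Krt18 and Cldn7 were detected, while Epcam, Cdh1, Krt19, Cldn3 and Cldn4 were not. The simple-epithelial keratin Krt8 rose by 3.03 in D2A1-m1 and 3.26 in D2A1-m2 (adjusted p = 4.72e-05 and 1.97e-05), more than the fitted difference of any member, and its partner keratin Krt18 fell by 1.0 in D2A1-m2 (adjusted p = 0.00412). The summed deposited intensity of the 10 epithelial marker probes was 893.4 to 1074 in D2A1, 1533 to 1716 in D2A1-m1 and 1514 to 1656 in D2A1-m2, and that of the 13 mesenchymal marker probes 6201 to 7600, 5617 to 6700 and 6874 to 8473. The epithelial sums did not overlap between D2A1 and the sublines and the mesenchymal sums did. Of the epithelial list only Krt8 was called higher, by 1 probe, and its other probe was not detected on any array. Krt18 differed by -0.29 in D2A1-m1, and Cldn7 by 0.11 in D2A1-m1 and 0.01 in D2A1-m2, none of them called. The epithelial sums therefore do not show a rise across the list. The part of both sums in the results was not tested.

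The arrays themselves were similar in signal, with a median intensity of detected probes of 217 to 238 in D2A1, 247 to 252 in D2A1-m1 and 223 to 253 in D2A1-m2, and with 13419 to 14942 probes detected per array. Arrays correlated at 0.956 to 0.994 over the tested probes, and no array duplicated another. The median absolute batch difference was 0.29 over the 37 probes and 0.20 over all tested probes, and 2 of the 37, Lamb1 and Col16a1, moved by at least 1.5-fold with the batch. Each batch held all 3 lines, so that the lines and the batch can be told apart. Within batch 1 the spread rested on the 2 D2A1 arrays alone, and 0 of the 37 probes were called there by limma in D2A1-m2 against D2A1, with 9 at an unadjusted p under 0.05.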

How the data were processed

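RNA from 8 cultures (D2A1, D2A1-m1 or D2A1-m2) was amplified, labelled with biotin and hybridised to MouseWG-6 v2.0 BeadChips in 2 batches. The authors deposited the mean bead intensity of 45281 probes per array, neither background-corrected nor normalised, and per the file headers a p-value for detection, which sets a probe against that array's negative control beads. They also deposited processed values on a scale close to log2, after removal of probes with a detection p over 0.01 on all arrays, variance stabilisation and robust spline normalisation in lumi (version not given in the sources used here) and batch removal with ComBat. Those values had medians of 7.83 to 7.84 per array, their exact scale and centring stay unknown, and they served as an alternative. The 1.5-fold limit was applied to them as if they were log2, so it need not mean the same fold there.

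With limma 3.58.1 in R 4.3.3, intensities were corrected with the normexp model by detection p (offset 16), quantile normalised and taken to log2. Probes detected on at least 1 array were tested (16462) with lmFit and eBayes, with terms for line and batch (4 residual and 5.38 prior degrees of freedom, median replicate SD 0.157), and p-values were adjusted by Benjamini-Hochberg over all of them. The number of arrays limits the precision, and intervals are at 95%. This test was checked on simulated data. Where no array of the dimmer line detected a probe, the fold is a bound against the mean, over that line's arrays, of the lowest detected signal or the probe's own value, whichever was higher. Genes were named through the platform annotation (34885 probes with 1 gene, 18 with several, 10378 unnamed). All 137 member probes had their Entrez identifier in the RefSeq table. Each probe was kept as its own row, since probes of 1 gene can differ.

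The members and the lists of pathway genes and markers were chosen with earlier results of these data known. Named were all called members, up to 3 uncalled detected probes of highest mean per role, and called pathway genes, and values per array were given for up to 4 called probes per role. The alternatives covered background correction, offset, scaling, the source of the values, the batch, the replicate number as a block, the detection filter, the variance prior, 1 probe per gene, the thresholds, the methods' t-test and leaving out each array. They were run for the members only, so the calls of pathway genes and markers were not put through them.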

Additional observations from a re-analysis of the deposited data

Results flagged for a closer look

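In 5 member probes the difference between the sublines itself passed the test, so that their changes from D2A1 differed between D2A1-m1 and D2A1-m2. Col6a1 was higher in D2A1-m1 by both detected probes, by 1.31 for ILMN_1259388 and 0.92 for ILMN_2768087 (log2 difference, D2A1-m1 minus D2A1-m2, adjusted p = 0.00677 and 0.0118 from limma). ILMN_1259388 was tested only because D2A1-m1, the line where it was high, detected it, so its p-value is no independent support. Its fold is a bound of at least 1.86. Lamc1 (ILMN_2974798), Hspg2 (ILMN_2685329) and Plod2 (ILMN_2819929) were lower in D2A1-m1, at -0.67, -0.61 and -0.83 (adjusted p = 0.0383, 0.0393 and 0.027). Of all tested probes 3.36% were called in this comparison. All 5 calls were lost without D2A1-m1 replicate 1 (1.17, 1.05, -0.74, -0.64 and -0.91) and without replicate 2 (1.48, 0.77, -0.59, -0.58 and -0.73), which leaves 1 array of that line, and each kept its direction.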

How the results depend on the processing

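None of the 29 calls of single probes reversed under any alternative. Of 504 comparisons of a call with an alternative, 362 kept the call, and of 231 with 1 array left out, 187 did. The share of all tested probes called follows each count in parentheses. In D2A1-m1 against D2A1, 10 of 37 members were called (12.3%), and 2 with the authors' processed values (2.89%), 2 in batch 1 alone (1.16%), 6 of 25 with 1 probe per gene (14.6%), 3 by the methods' t-test with Benjamini-Hochberg (3.64%) and 2 at the paper's limit (1.83%). In D2A1-m2 against D2A1, 14 were called (13%), and 6 with the authors' values (2.65%), 0 in batch 1 alone by limma (0.826%, with 9 members at an unadjusted p under 0.05), 9 by the methods' t-test with Benjamini-Hochberg (9.47%) and 4 at the paper's limit (4.06%). Between the sublines, 5 were called (3.36%), and 1 with no background correction (2.26%), 2 with an offset of 50 (2.25%), 1 with no batch term (0.65%), 2 of 137 with no detection filter (0.623%), 3 of 26 among probes detected on every array (3.5%), 8 with a trended and robust prior (3.93%) and 3 at an unadjusted p under 0.001 (2.65%). There were 0 with the authors' values and in batch 1 alone by limma (0.705% and 0%, with 14 and 2 members at an unadjusted p under 0.05) and 0 by the methods' t-test at both limits (0.0425% and 0.541%, with 17 members at an unadjusted p under 0.05). With 1 array left out, the counts ran from 3 (without D2A1-m1 replicate 1) to 12 in D2A1-m1, from 8 (without D2A1 replicate 3) to 15 in D2A1-m2, and from 0 (without either D2A1-m1 array, where 10 and 11 had an unadjusted p under 0.05) to 9 (without D2A1 replicate 2) between the sublines. They were also 6 in D2A1-m1 without D2A1-m1 replicate 2, and between the sublines 3 without D2A1 replicate 3 and 1, 1 and 2 without D2A1-m2 replicates 1, 2 and 3. Where an array of D2A1-m1 is left out, the remaining one is assumed to vary like the other lines. The detected members ran from 31 to 33 in D2A1, stayed at 34 in D2A1-m1 and ran from 32 to 34 in D2A1-m2. The labels do not say whether shared replicate numbers mark pairs, and they were not treated as such. Between lines, same-numbered arrays correlated in their deviations at -0.282 to 0.681 and other arrays at -0.681 to 0.633. With the batch removed the ranges were -0.406 to 0.301 and -0.46 to 0.678. Before its removal the sign followed the batch, and the deviations of the 2 D2A1-m1 arrays mirror each other, so these values cannot decide the pairing. A replicate block in place of the batch gave 8, 13 and 2 called members in the 3 comparisons (12.6%, 14% and 0.814%), and a replicate block with the batch 11, 15 and 9 (12.9%, 14.5% and 3.71%). The cause of these differences was not tested, beyond the smaller number of arrays within a batch. Low signal over background limits Col6a1, Col1a1, Col18a1 and the Plod2 probe ILMN_2770429, which were not detected on every array.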
